A study of Mus musculus with 8 samples.

Results

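The genes described here are 55 mouse genes that carry a cell through mitosis, among them the mitotic cyclins and kinases, the proteins of the kinetochore and of its checkpoint, the mitotic kinesins and the proteins of cytokinesis. They were taken by symbol from the 40840 genes in the deposited table of each library, and all 55 had enough counts to be tested among 19963 genes. The libraries came from primary myofibroblastic hepatic stellate cells (pMF-HSCs). Hepatic stellate cells store vitamin A beside the liver sinusoid and turn into collagen-secreting myofibroblasts when grown on plastic. Stellate cells of wild-type male C57BL/6J mice aged 15 to 18 weeks were sorted by the autofluorescence of their retinoids and cultured for 7 days in medium with serum. For a further 24 h they then received either the vehicle DMSO (the control group, n = 4) or 50 µM of OSMI-1 (the OGTi group, n = 4). OSMI-1 inhibits OGT, the enzyme that attaches the sugar O-GlcNAc to proteins, and the comparison asks how transcript levels differ once that enzyme has been inhibited for a day. The same replicate number marks a control and an OGTi library that were treated as a pair. Stellate cells cultured in this way have already left quiescence, and a single dose and time were sequenced.

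Mitosis separates duplicated chromosomes. CDK1 bound to cyclin B drives entry, condensin folds the chromosomes, and kinetochores assembled on the centromeres attach them to spindle microtubules, which kinesins and other motors move. The spindle assembly checkpoint holds the anaphase-promoting complex inactive until every chromosome is attached, after which CDC20 activates it, securin and cyclin B are degraded, separase opens the cohesin rings and a contractile ring divides the cell. Most transcripts of these proteins are made only in G2 and M phase, when MuvB complexes containing B-MYB or FOXM1 act at promoters through a short sequence called the CHR element, often with NF-Y bound at CCAAT boxes nearby. Cells out of the cycle hold few of them, and in the liver, stellate cells that become myofibroblasts also begin to divide. In bulk RNA, fewer cells in the cycle and less RNA per cycling cell cannot be told apart.

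Libraries held between 30068881 and 37372423 expected counts, the number of reads that RSEM assigns to genes, and between 19035 and 20293 genes were detected in 7 of them against 23746 in OGTi replicate 4. The 55 genes together received 18701 to 43318 counts in a control library and 5044 to 11874 in an OGTi library. Levels below are read counts per library total (CPM, the usual scaling of counts to a common depth) with TMM factors applied, and fold changes are from a paired quasi-likelihood fit in edgeR with adjustment over all genes tested. As a check of the labelled cell type, the 12 stellate and myofibroblast markers all passed the filter on low counts and summed to 9104 to 16932 CPM in control and 7469 to 18870 CPM in OGTi libraries. Among them Pdgfrb (log2 fold change -1.68) and Lrat (-1.78) were called lower. The 7 endothelial markers summed to 3.16 to 6.72 CPM in control and 1.01 to 2.19 CPM in OGTi, with Tek and Lyve1 called lower. The 8 macrophage markers summed to 31.1 to 96.8 and 58.5 to 153.0 CPM, with Cd68 called higher, and the 4 cholangiocyte markers to 48.9 to 81.4 and 54.1 to 93.9 CPM, with Sox9 called higher and Krt19 lower. The 6 hepatocyte markers summed to 0.0258 to 0.321 CPM in control and 0.439 to 1.58 CPM in OGTi, with Cyp2e1 called higher and Tat at 0 in every library, and lymphocyte markers stayed at or below 0.351 CPM. The part of these other cell types in the results below was not tested.

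Most of the mitotic genes were lower in OGTi than in control pMF-HSCs. Of 55 genes, 48 passed the threshold (adjusted p no higher than 0.05) as lower, 0 as higher, and 7 did not pass. Over all genes tested, 10.2% were called lower and 8.13% higher. The median log2 fold change was -2.03 over the 55 genes and 0.01 over all genes, and single genes ran from -3.46 for Ccnb1 to 0.03 for Cenpf. Every OGTi library lay below every control library for 39 of the 55, against 12% of all genes, and 50 of 55 were lower in OGTi in all 4 pairs, against 21.5% of all genes. The p-values measure the spread between these 4 pairs of cultures.

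Summed over the 55 genes, the level was 908.1, 1068.6, 641.7 and 505.4 CPM in control replicates 1 to 4, and 242.9, 372.0, 217.0 and 162.5 CPM in the OGTi libraries of the same numbers. The lowest control sum thus stood above the highest OGTi sum, and replicate 2 was the highest and replicate 4 the lowest in both groups. The control mean was 781.0 ± 254.4 CPM and the OGTi mean 248.6 ± 88.8 CPM (SD, n = 4). The cultures of a group therefore differed among themselves, by 2.11 times in control and 2.29 times in OGTi, whereas the ratio within a pair varied less, at 3.74, 2.87, 2.96 and 3.11. The median difference over the 55 genes was -2.26, -1.65, -2.07 and -1.96 on the log2 scale in pairs 1 to 4. In the OGTi library of the pair, 53, 55, 55 and 51 genes were lower. Of all genes, 48.5%, 49.2%, 51.2% and 47.7% were lower. Control replicate 2 held the highest level of its group for 43 genes and control replicate 4 the lowest for 48. OGTi replicate 2 was the highest of its group for 46.

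**Figure D1:**
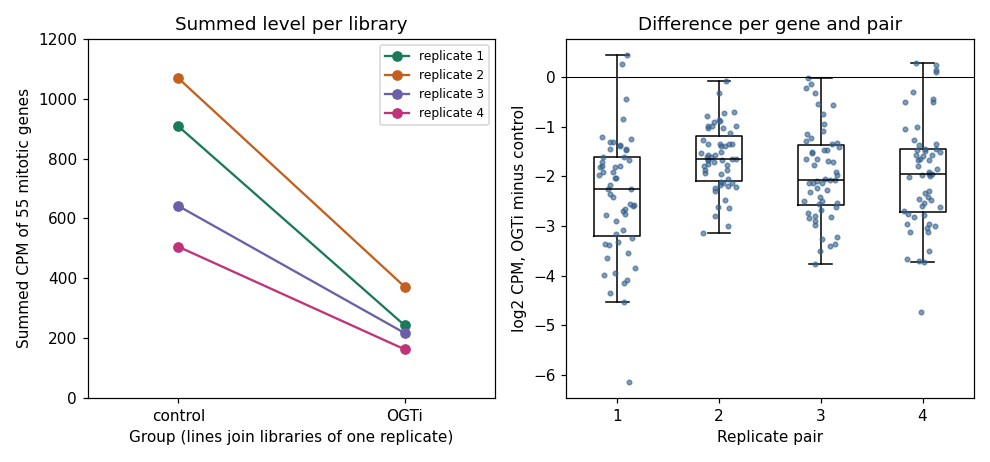
Left, summed CPM of the 55 mitotic genes in each library (vertical axis from 0), with lines joining the control and OGTi library of a replicate. Right, difference in log2 CPM between the OGTi and the control library for each gene (points) in each replicate pair, with boxes at the quartiles, a line at the median and whiskers from the lowest to the highest gene within 1.5 box lengths. All 4 lines fall, and the pair medians lie between -2.26 and -1.65.

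**Figure D2:**
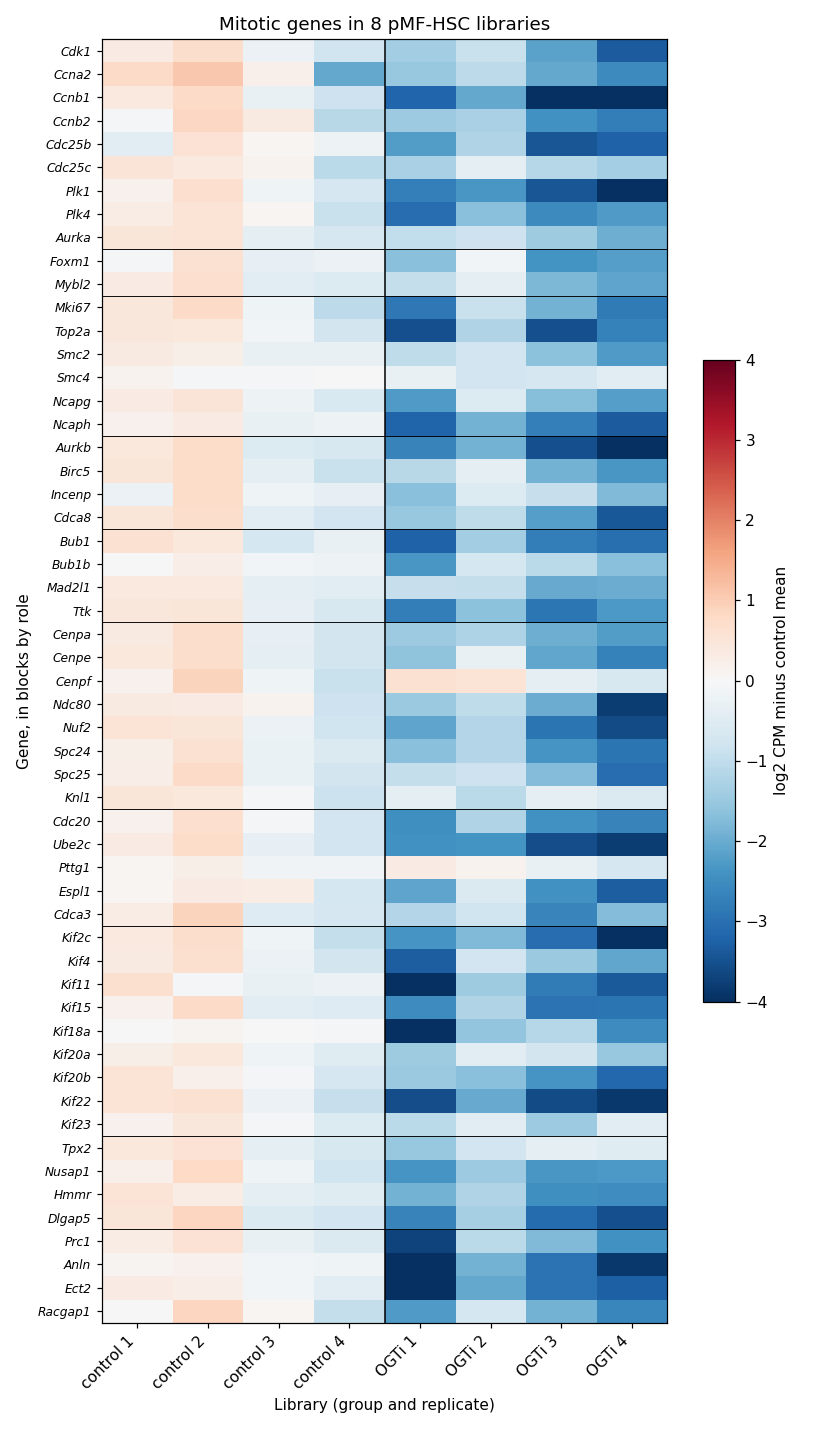
Level of each of the 55 genes (rows, in blocks by role) in the 8 libraries (columns), as log2 CPM minus the mean of the control libraries, with colours ending at -4 and 4. Blue (below the control mean) prevails in the OGTi columns, the rows of Cenpf and Pttg1 hold the only red cells there, and control replicate 4 is light blue in most rows.

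The promoters of these genes share sequence features that the choice of genes did not use. RefSeq promoter windows, from 250 bases before to 50 bases after a start, were given for 45 of the 55 genes (47 windows) and for 27025 genes in all, in a table built on GRCm38.p6. No window was given for Ccna2, Cdc25c, Foxm1, Smc4, Aurkb, Incenp, Spc24, Kif20a, Tpx2 and Dlgap5. The letters TTTGAA, those of the CHR element, stood on either strand in 32 of 45 genes (71.1%) against 20.2% of all genes with a window. CCAAT, the core of the NF-Y box, stood in 30 of 45 (66.7%) against 41.1%, and at least 2 copies in 19 (42.2%) against 13.3%. Both motifs were present in 26 genes (57.8%) against 7.97% of all genes, and neither in 9 (20.0%) against 47.7%. The E2F site TTTCCCGC was found in 1 of the 45 genes (2.22%, against 1.24%) and TTTGGCGC in 2 (4.44%, against 0.585%). None of these 4 motifs contains another, though neighbouring matches can share letters at their ends, and a match is a description of the sequence, not of binding.

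Matches to TTTGAA gathered at the start. Of the 47 windows, 13 (27.7%) held one within the first 25 bases after the start, where 1.31% of all windows did. Within 50 bases on either side of the start, a distance chosen after the positions had been seen, 30 of 45 genes (66.7%) held it against 5.72% of all genes. Matches to CCAAT peaked further upstream, with 15 of 47 windows (31.9%) between 75 and 50 bases before the start against 6.99% of all windows.

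**Figure D3:**
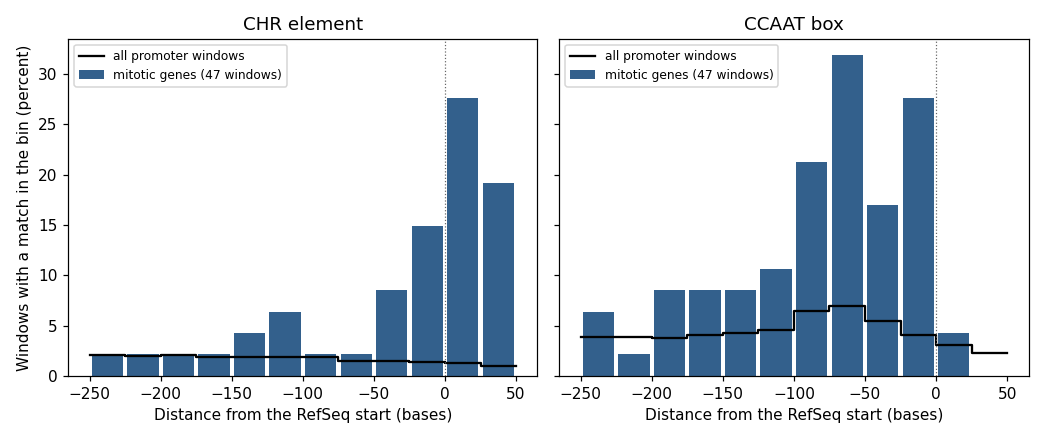
Share of promoter windows (vertical axis, percent) with a match to the CHR element (left) or the CCAAT box (right) in bins of 25 bases by distance from the RefSeq start (horizontal axis). Bars are the 47 windows of the mitotic genes and the line is all 32851 windows, and the bars stand highest from 0 to 25 bases after the start for the CHR element (27.7%) and from 75 to 50 bases before it for the CCAAT box (31.9%).

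The following 30-base stretches show CCAAT in Ccnb1, the gene of lowest p, and TTTGAA in the 6 genes of lowest p among those called lower with a match within 50 bases of the start. Each is on the strand of its gene, 5′ to 3′, and the capitals mark TTTGAA and CCAAT or their reverse complements TTCAAA and ATTGG. Coordinates are from GRCm39, where the whole promoter window holding each stretch had a single match on the chromosome of its gene. Each stretch overlaps an exon of a GENCODE transcript of the same gene. Ccnb1, whose window holds CCAAT at 99 and 67 bases before the start, is shown at chr13:100923076-100923105 and chr13:100923044-100923073, both on the minus strand. Ube2c is shown at chr2:164611808-164611837 (plus strand), Plk1 at chr7:121758676-121758705 (plus), Kif22 at chr7:126641592-126641621 (minus), Cdc20 at chr4:118294541-118294570 (minus), Anln at chr9:22300464-22300493 (minus) and Ect2 at chr3:27207978-27208007 (minus).
Ccnb1, first CCAAT: gaacccgcggcgCCAATgggaagagagcga
Ccnb1, second CCAAT: gccacgaactggCCAATgaggagcgagcgg
Ube2c: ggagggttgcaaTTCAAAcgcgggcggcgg
Plk1: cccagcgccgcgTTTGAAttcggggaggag
Kif22: gggccccggtaaTTCAAAagagagaagcgg
Cdc20: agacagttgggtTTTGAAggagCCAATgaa
Anln: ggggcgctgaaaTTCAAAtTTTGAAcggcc
Ect2: gagagagcgactggattttTTTGAAtcgga

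The motif was not restricted to genes called lower. TTTGAA stood in 29 of the 41 genes called lower that had a window and in 3 of the 4 uncalled genes that had one, and CCAAT in 28 of 41 and 2 of 4. The 3 uncalled genes with TTTGAA are shown for that reason. Kif23 lies at chr9:61854062-61854091 (minus strand), Knl1 at chr2:118877619-118877648 (plus) and Cenpf at chr1:189420264-189420293 (minus).
Kif23: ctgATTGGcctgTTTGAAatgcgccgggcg
Knl1: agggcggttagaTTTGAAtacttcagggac
Cenpf: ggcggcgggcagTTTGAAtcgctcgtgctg

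Among the 9 cyclins, kinases and phosphatases grouped under mitotic entry, 8 were called lower, with a median log2 fold change of -2.02. Ccnb1 (chr13:100915153-100923116), cyclin B1, the partner that activates CDK1, had the lowest log2 fold change of the 55 genes in the fit reported. It was at 26.8, 34.5, 16.6 and 11.5 CPM in control replicates 1 to 4 and at 2.24, 4.95, 1.18 and 0.87 CPM in OGTi, so that the groups did not overlap. The log2 fold change was -3.46 ± 0.28 (SE, adjusted p = 0.000201), an 11.0-fold lower level. Plk1 (chr7:121758646-121769108), the Polo-like kinase that acts from centrosome maturation to cytokinesis, went from 9.35 to 23.8 CPM across control cultures to 0.773 to 2.91 CPM in OGTi (-3.20 ± 0.26, adjusted p = 0.000201). Its relative Plk4, which starts centriole duplication, had a log2 fold change of -2.40 (adjusted p = 0.00151).

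Cdk1, the kinase itself, fell by less than its cyclin B1 partner, with 47.4, 61.9, 32.4 and 21.8 CPM in control and 14.3, 20.3, 8.57 and 3.71 CPM in OGTi (-1.94 ± 0.24, adjusted p = 0.000803). The difference between the 2 genes was not tested. Ccnb2, cyclin B2, fell by 2.02 (adjusted p = 0.00224). Ccna2, cyclin A2, which also serves S phase, fell by 1.83 (adjusted p = 0.00465), though its groups overlapped because control replicate 4 was at 2.76 CPM against 13.2 to 24.3 CPM in the other controls and 1.93 to 5.54 CPM in OGTi. Aurka (chr2:172198109-172212849), the centrosomal Aurora kinase and the gene of highest mean TPM in this role, was at 24.5, 26.0, 13.9 and 10.9 CPM in control and at 8.96, 9.93, 6.50 and 4.51 CPM in OGTi. Its log2 fold change of -1.30 ± 0.22 (adjusted p = 0.00336) was the smallest of the 8 called. The phosphatases that remove inhibitory phosphates from CDK1 gave Cdc25b at -2.56 ± 0.42 (adjusted p = 0.00281) and Cdc25c at -1.09 ± 0.36 (adjusted p = 0.0637). Cdc25c was measured at 3.34, 3.08, 2.56 and 1.08 CPM in control and 0.919, 1.75, 1.02 and 0.87 CPM in OGTi, a lower value in all 4 pairs with a 95% interval of -1.89 to -0.28 and a p that missed the threshold. It passed in 5 of 13 alternatives, among them DESeq2 (adjusted p = 0.0472), library totals (0.0327) and no filter on low counts (0.0374).

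Both transcription factors that act at G2 and M promoters were called lower, at low levels. Foxm1 (chr6:128339518-128353147) was at 3.60, 5.80, 3.02 and 3.22 CPM in control and 1.15, 3.51, 0.681 and 0.773 CPM in OGTi (-1.62 ± 0.34, adjusted p = 0.00925). OGTi replicate 2 lay within the control range. Mybl2 (chr2:162896435-162926614), which encodes B-MYB, was at 2.34, 2.94, 1.32 and 1.24 CPM in control and 0.919, 1.41, 0.495 and 0.387 CPM in OGTi (-1.36 ± 0.35, adjusted p = 0.0228). Both calls depended on the libraries used. Mybl2 lost its call whichever replicate pair was left out (adjusted p 0.0593 to 0.0879), and Foxm1 lost it without replicate 3 (adjusted p = 0.0508) or 4 (0.0511). Without the replicate block both calls were lost (adjusted p 0.102 for Foxm1 and 0.101 for Mybl2).

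In the group that shapes mitotic chromosomes, 5 of 6 genes were called lower, with a median of -1.92. Ncaph (chr2:126945729-126975874), the kleisin of condensin I, stood at 16.6, 18.5, 11.8 and 12.7 CPM in control and at 1.55, 3.95, 2.17 and 1.42 CPM in OGTi (-2.80 ± 0.29, adjusted p = 0.000351). Ncapg, the HEAT-repeat subunit of the same complex, fell by 1.69 (adjusted p = 0.00484). Of the ATPase subunits, Smc2 fell by 1.42 (adjusted p = 0.00345), and Smc4 (chr3:68911944-68941960) was at 26.7, 23.4, 22.6 and 23.8 CPM in control and 19.5, 14.1, 15.3 and 17.5 CPM in OGTi. For Smc4 the groups did not overlap, but the difference was small (-0.55 ± 0.21, 95% interval -1.02 to -0.08) and was not called (adjusted p = 0.1004), though it was with library totals (0.0366) and in both fits on TPM (0.0257 and 0.0239). The difference between Smc2 and Smc4 was not tested. Top2a, the topoisomerase that untangles sister DNA, was at 30.6, 29.8, 20.8 and 13.3 CPM in control and 1.92, 9.65, 1.92 and 3.38 CPM in OGTi (-2.73 ± 0.41, adjusted p = 0.00183). Mki67, which encodes the proliferation marker Ki-67 that coats mitotic chromosomes, fell by 2.15 (adjusted p = 0.00328), with OGTi replicate 2 at 2.73 CPM above control replicate 4 at 2.46 CPM.

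The 4 genes of the chromosomal passenger complex, which corrects wrong attachments at the centromere and then directs cytokinesis, were all called lower with a median of -1.74. The catalytic subunit Aurkb (chr11:68936467-68944764) was at 16.8, 21.0, 8.65 and 8.11 CPM in control and 1.92, 3.35, 1.05 and 0.258 CPM in OGTi (-3.31 ± 0.37, adjusted p = 0.000503), which is 9.93-fold lower. Cdca8, the borealin subunit, fell by 2.03 (adjusted p = 0.000779). Birc5 (chr11:117740040-117746581), survivin, was at 20.1, 23.8, 11.2 and 7.70 CPM against 6.52, 10.8, 3.81 and 2.77 CPM (-1.44 ± 0.23, adjusted p = 0.00245, and 0.0666 without the replicate block). The scaffold Incenp (chr19:9846569-9876924) was at 11.3, 21.9, 11.9 and 10.6 CPM against 4.11, 9.08, 7.03 and 3.83 CPM (-1.24 ± 0.24, adjusted p = 0.0062). The kinase had the largest and the scaffold the smallest fold change of the 4, a difference that was not tested, and the groups overlapped for Birc5 alone.

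All 4 genes of the spindle assembly checkpoint were called lower, with a median of -1.99 and no overlap between groups. The kinase Bub1 (chr2:127643036-127673806) was at 8.49, 7.40, 3.38 and 4.49 CPM in control and 0.546, 2.10, 0.774 and 0.644 CPM in OGTi (-2.64 ± 0.39, adjusted p = 0.00181). Ttk, the kinase MPS1 that recruits the other checkpoint proteins, fell by 2.49 (adjusted p = 0.00207). Mad2l1 (chr6:66512208-66524204), the MAD2 protein that sequesters CDC20, was at 26.7, 26.9, 16.0 and 15.3 CPM against 10.7, 10.49, 5.05 and 5.09 CPM (-1.48 ± 0.22, adjusted p = 0.00183). Bub1b (chr2:118428684-118472076), which encodes BUBR1, was at 19.1, 22.8, 17.4 and 16.5 CPM against 3.68, 11.4, 8.95 and 5.90 CPM (-1.44 ± 0.29, adjusted p = 0.00704). The kinases Bub1 and Ttk had the larger fold changes and MAD2 and BUBR1 the smaller.

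Of the 8 kinetochore and centromere genes, 6 were called lower, with a median of -1.71. The 4 subunits of the NDC80 complex, the main microtubule anchor of the kinetochore, all fell. Nuf2 (chr1:169325503-169359098) was at 12.6, 12.0, 7.23 and 4.95 CPM in control and 1.95, 3.79, 1.08 and 0.677 CPM in OGTi (-2.47 ± 0.30, adjusted p = 0.000723). Spc25 (chr2:69009753-69036574), of highest mean TPM in this role, was at 31.9, 45.3, 22.1 and 16.0 CPM against 13.7, 15.2, 7.92 and 3.22 CPM (-1.64 ± 0.25, adjusted p = 0.00203). Ndc80 fell by 2.06 (adjusted p = 0.00301) and Spc24 by 2.05 (adjusted p = 0.00101). Cenpa, the histone H3 variant that marks the centromere, fell by 1.73 (adjusted p = 0.00128), and Cenpe, a kinetochore motor that carries chromosomes to the spindle equator, by 1.68 (adjusted p = 0.0033, and 0.0723 without the replicate block).

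Cenpf and Knl1 were the exceptions in this role. Cenpf (chr1:189372752-189420315), a protein of the outer corona, was at 3.22, 5.33, 2.53 and 1.51 CPM in control and 4.37, 4.23, 2.17 and 1.80 CPM in OGTi. It was higher in OGTi in pairs 1 and 4 and lower in pairs 2 and 3, with a log2 fold change of 0.03 ± 0.28 (95% interval -0.60 to 0.66, adjusted p = 0.957) whose sign changed with the scaling of the libraries. Knl1 (chr2:118877598-118935982), the scaffold on which the checkpoint proteins assemble, was at 2.62, 2.49, 1.81 and 1.00 CPM against 1.44, 0.846, 1.42 and 1.22 CPM (-0.62 ± 0.39, 95% interval -1.48 to 0.24, adjusted p = 0.304). Its level was among the lowest of the 55 genes, with 27 to 50 counts in an OGTi library, and the average transcript length that RSEM gave it also differed between the groups.

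Among the 5 genes of mitotic exit and sister separation, 4 were called lower, with a median of -2.19. Ube2c (chr2:164611768-164620742), the ubiquitin-conjugating enzyme of the anaphase-promoting complex, was at 19.9, 26.3, 12.5 and 9.32 CPM in control and 2.87, 2.94, 1.3 and 1.10 CPM in OGTi (-3.07 ± 0.25, adjusted p = 0.000201). Cdc20, the activator of that complex, was at 31.6, 45.04, 26.3 and 16.7 CPM against 5.14, 12.2, 5.23 and 4.41 CPM (-2.19 ± 0.24, adjusted p = 0.000463). Espl1, separase, fell by 2.23 ± 0.50 (adjusted p = 0.0127) from a level of at most 1.75 CPM, a call that was lost without the replicate block (adjusted p = 0.0548) and without replicate 1 (0.0506), 3 (0.0639) or 4 (0.0551). In OGTi libraries it had 3 to 29 counts. Cdca3, an adaptor for mitotic protein degradation, fell by 1.59 (adjusted p = 0.00353).

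Securin, the inhibitor that separase must lose before anaphase, did not follow them. Its gene Pttg1 (chr11:43311071-43321000) was at 39.1, 44.1, 33.8 and 33.6 CPM in control and 46.9, 41.3, 30.6 and 23.6 CPM in OGTi, with overlapping groups and a log2 fold change of -0.12 ± 0.22 (95% interval -0.60 to 0.36, adjusted p = 0.761). Per length it was the most abundant of the 55 genes, at a mean of 84.3 TPM over the 8 libraries against 26.2 TPM for Spc25, the next. On the TPM scale control libraries averaged 96.5 ± 11.5 and OGTi libraries 72.1 ± 20.6 (SD, n = 4). A fall of the size seen for Cdc20 lies outside its interval.

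Mitotic kinesins are motors that slide, cross-link or shorten spindle microtubules, and 8 of 9 were called lower, with a median of -2.37. Kif22 (chr7:126626898-126641643), which pushes chromosome arms toward the spindle equator, was at 25.7, 27.1, 15.0 and 9.38 CPM in control and 1.47, 4.35, 1.42 and 1.16 CPM in OGTi (-3.28 ± 0.31, adjusted p = 0.000258). Kif11, the motor that separates the spindle poles, was at 11.5, 7.01, 5.99 and 6.27 CPM against 0.115, 2.73, 1.02 and 0.677 CPM. Its fold change of -3.10 had the largest SE of the 55 genes (0.65, adjusted p = 0.00928), because the difference was -6.13 in pair 1, where only 4 counts were left, and -1.35 in pair 2. Without replicate 4 its call was lost (adjusted p = 0.0522). Kif2c, which depolymerises microtubules at centromeres, fell by 2.97 (adjusted p = 0.000351), Kif15 by 2.70 (adjusted p = 0.00496) and Kif18a, which dampens chromosome oscillation, by 2.37 (adjusted p = 0.0116, and 0.0609 without replicate 4). Kif15 was a low gene, with 3 to 14 counts in an OGTi library. Kif20b fell by 2.19 (adjusted p = 0.000822) and Kif4, a chromosome-bound motor, by 1.87 (adjusted p = 0.0119).

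Of the 9 kinesins, Kif20a and Kif23 had the smallest fold changes. Kif20a (chr18:34757158-34766342), which brings the passenger complex to the midzone and had the highest mean TPM of the kinesins, was at 35.6, 40.8, 26.7 and 21.4 CPM in control and 11.1, 22.2, 18.3 and 10.54 CPM in OGTi (-1.03 ± 0.25, adjusted p = 0.0168, and 0.066 without replicate 4). Its groups overlapped through OGTi replicate 2 and control replicate 4. Kif23 (chr9:61823187-61854074), the motor subunit of centralspindlin, was at 5.63, 6.86, 4.83 and 3.46 CPM against 2.36, 3.70, 1.80 and 3.71 CPM. It was lower in pairs 1 to 3 and higher by 0.10 in pair 4 (-0.87 ± 0.32, 95% interval -1.58 to -0.17, adjusted p = 0.0862), and it passed the threshold without replicate 4 (0.0488), with library totals (0.0407) and with no filter on low counts (0.0491).

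Of 4 genes for spindle assembly and microtubule binding, 3 were called lower, with a median of -2.10. Dlgap5 (chr14:47625236-47655864), which stabilises the fibres that pull on kinetochores, was at 10.1, 13.1, 4.75 and 4.19 CPM in control and 1.09, 2.85, 0.805 and 0.58 CPM in OGTi (-2.69 ± 0.29, adjusted p = 0.000433). Nusap1 fell by 2.17 (adjusted p = 0.00154) and Hmmr, which encodes the hyaluronan-mediated motility receptor and binds spindle microtubules, by 2.03 (adjusted p = 0.00114). Tpx2 (chr2:152689854-152737245), the activator of Aurora A on the spindle, split by replicate. It was at 32.4, 36.8, 19.0 and 15.6 CPM in control and 8.53, 14.4, 18.7 and 17.2 CPM in OGTi, so that it differed by -1.92 and -1.35 in pairs 1 and 2 and by -0.03 and 0.14 in pairs 3 and 4. Over all pairs the log2 fold change was -0.79 ± 0.36 (95% interval -1.58 to 0.01, adjusted p = 0.161).

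Cytokinesis held the largest role median, -2.64, with 4 of 4 genes called lower. Anln (chr9:22242402-22300501), which encodes the actin-binding ring protein anillin, was the most evenly expressed of them in control, at 62.6, 65.3, 53.6 and 52.0 CPM, and was at 3.505, 15.6, 7.43 and 3.93 CPM in OGTi. It was 9.14-fold lower (-3.19 ± 0.36, adjusted p = 0.000503). Ect2, the exchange factor that activates RhoA at the division plane, fell by 3.08 (adjusted p = 0.000616). Racgap1, a subunit of centralspindlin, fell by 1.89 (adjusted p = 0.000998). Prc1 (chr7:79944168-79966011), which bundles the antiparallel microtubules of the midzone, was at 30.001, 37.002, 19.9 and 16.4 CPM against 1.84, 11.6, 7.15 and 4.51 CPM (-2.20 ± 0.40, adjusted p = 0.00492). Within centralspindlin, Racgap1 was called and its motor subunit Kif23 was not, and the difference between them was not tested.

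**Figure D4:**
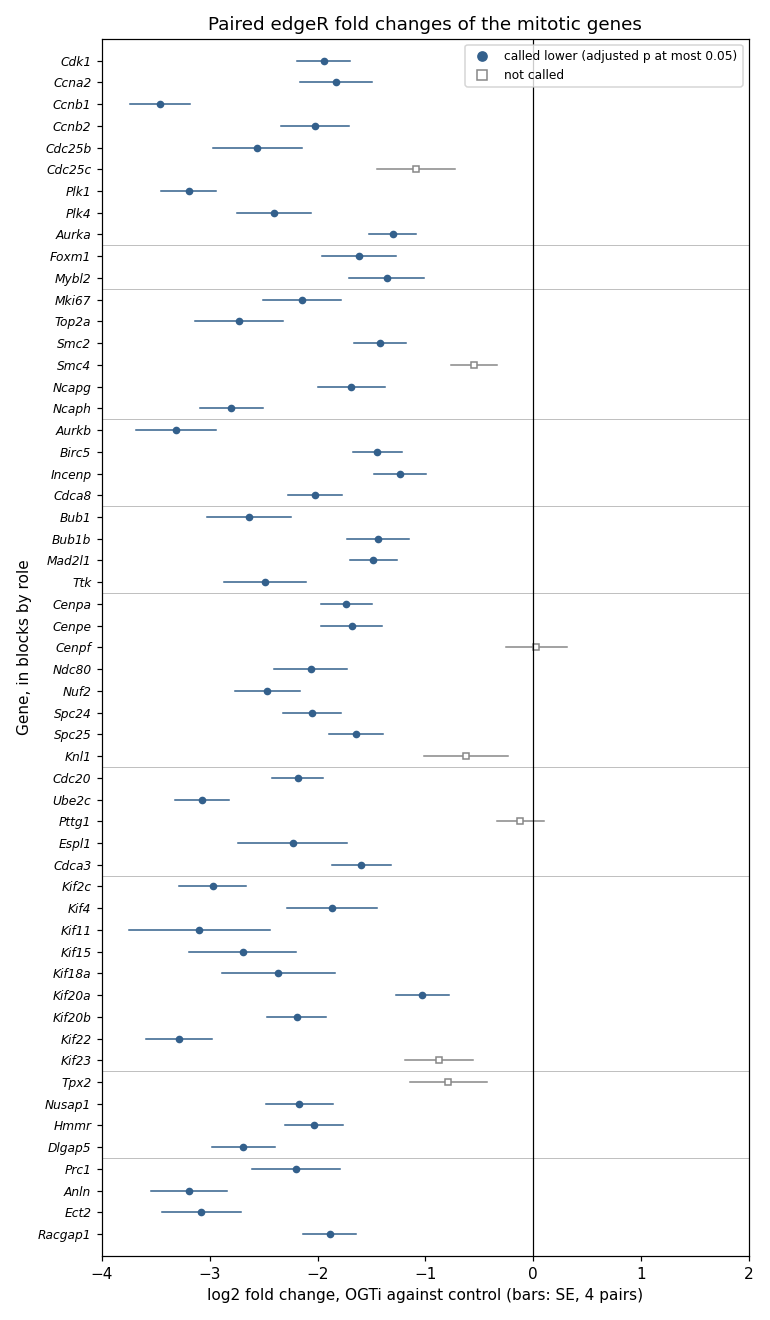
Log2 fold change, OGTi against control, of the 55 genes in blocks by role (paired edgeR fit, 4 pairs), with bars of 1 SE. Filled circles are the 48 genes called lower and open squares the 7 not called, which lie between -1.09 (Cdc25c) and 0.03 (Cenpf).

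Genes that work beside these were counted in lists drawn up from general knowledge. There were 7 such lists outside the 55, called the other mitotic lists. They include subunits of promoter-binding complexes and tubulins as well as mitotic proteins. Of their 138 genes, 59 were called lower and 1 higher, with a median log2 fold change of -0.79. These counts, and those of each list below, stand beside the 10.2% of all genes called lower and the 8.13% called higher. In the list of other kinetochore and checkpoint genes 18 of 35 were lower (median -1.01), among them Oip5, which helps to load the centromeric histone (-2.70, adjusted p = 0.00109), while Zwint, a kinetochore protein at a mean of 525 TPM, was at 0.45 ± 0.18 (adjusted p = 0.117). In the list of cohesin and other condensin genes 11 of 19 were lower (median -1.03), with the cohesin acetyltransferase Esco2 at -2.58 (adjusted p = 0.00203) and the condensin II kleisin Ncaph2 at 0.09 (adjusted p = 0.796). Other spindle and cytokinesis genes gave 10 of 18 lower (median -1.91), such as the citron kinase Cit at -2.80 (adjusted p = 0.000503), and 1 higher, the microtubule depolymerase Kif2a (1.25 ± 0.26, adjusted p = 0.00827), which also acts outside mitosis.

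The other 4 of the 7 lists had medians nearer 0. Of 17 subunits and regulators of the anaphase-promoting complex, 3 were called lower (17.6%, median -0.19). The inhibitor Fbxo5 was at -3.18 (adjusted p = 0.00135) and the core subunit Anapc5 at -0.23 (adjusted p = 0.452). The subunits of the DREAM and MuvB complexes and of NF-Y gave 4 of 14 lower (median -0.17), with Lin9, a MuvB subunit, at -2.85 (adjusted p = 0.00272) and the histone-binding subunit Rbbp4 at -0.28 (adjusted p = 0.465). Other regulators of mitotic entry gave 6 of 15 lower (median -0.73), among them the CDK subunit Cks1b (-1.47, adjusted p = 0.00182) and the kinase Pbk (-2.76, adjusted p = 0.000317). Tubulin and centrosome genes gave 7 of 20 lower (median -0.66), with Tubb5 at -1.68 (adjusted p = 0.0006) and Tuba1b at -0.45 (adjusted p = 0.19), although tubulin paralogs are alike enough to share reads.

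Kinesins of interphase transport were set beside the mitotic kinesins. Of 17, 1 was called lower and 1 higher, with a median of 0.01, and the higher one was Kif21a (1.32, adjusted p = 0.0212). Kif5b, the conventional kinesin of cargo transport, was at 0.10 (adjusted p = 0.803). DNA replication genes, which peak earlier in the cycle, gave 26 of 38 lower with a median of -1.33. Mcm5, a subunit of the replicative helicase, was at -2.34 (adjusted p = 0.000317), whereas the sliding clamp Pcna was at 0.25 (adjusted p = 0.445).

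**Figure D5:**
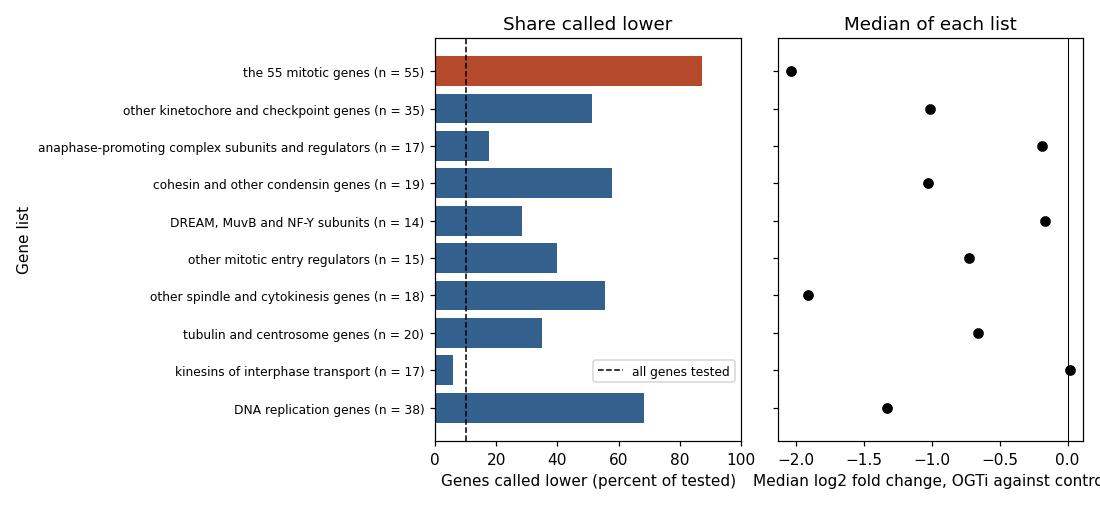
Left, share of each gene list called lower in OGTi (horizontal axis, percent of genes tested, from 0), with a dashed line at the 10.2% of all genes tested. Right, median log2 fold change of each list. The 55 mitotic genes stand at 87.3% and a median of -2.03, and the kinesins of interphase transport at 5.88% and 0.01.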

How the data were processed

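RNA-seq libraries of 8 pMF-HSC cultures (control and OGTi, n = 4 each, grouped by sample title) were analysed. The authors enriched polyadenylated RNA, made stranded paired-end libraries, aligned reads to mm39 with Bowtie2 2.3.5.1 and counted with RSEM 1.3.1. The methods name a GENCODE annotation, while transcript identifiers in the tables are those of RefSeq. The deposited tables give expected counts, which need not be whole, TPM, scaled by length and depth, and an abundance-weighted transcript length. A deposited comparison table with the authors' DESeq2 1.36.0 fold changes and p-values, and with 16 columns of per-sample values, was not used.

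Expected counts were rounded and genes with a total of at least 10 kept. A quasi-likelihood model (glmQLFit, glmQLFTest, edgeR 4.0.16, R 4.3.3) with TMM scaling was fitted to all genes, testing treatment with replicate as a blocking factor, with Benjamini-Hochberg adjustment and calls at an adjusted p of at most 0.05. The block follows the study's methods, which pair samples of one replicate. Deviations from group means of same-numbered libraries correlated across genes at 0.160, 0.224, 0.105 and 0.318, and those of other libraries at -0.312 to 0.208. The common biological coefficient of variation was 0.342. Pair differences are of log2(CPM + 0.05). Intervals are 95%. Counting error adds to the spread between cultures where counts were few, as in Kif15, Espl1, Kif11, Kif18a, Aurkb, Cdc25b, Kif2c, Ndc80, Mybl2 and Ttk, whose lowest OGTi library held 3 to 12 counts, and reads carried no molecular identifiers.

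The 55 genes and all lists were chosen with earlier results of these data known, so lists are described by counts and medians with no test. In each role the genes of highest mean TPM, lowest p and highest p were given in full, and in other lists those of highest TPM, lowest p or a higher call were named. Gene positions are from GENCODE vM39 (GRCm39). Alternatives were a fit without the block, DESeq2 1.42.0, upper-quartile scaling, library totals, no filter and filterByExpr, a length trend removed, limma-trend (limma 3.58.1) on log2(TPM + 1) and log2(TPM + 0.1), a threshold of 0.01, and each replicate pair left out. The fitting code was tested on simulated counts.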

Additional observations from a re-analysis of the deposited data

Results flagged for a closer look

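Of 110 groups examined (55 genes in each of the 2 groups of 4 libraries), 7 held a library far from the 3 others by Dixon's criterion, where chance would give about 5.5. In 6 of the 7 it was the highest library of the OGTi group, replicate 2. Foxm1 was at 3.51 CPM there against 0.681 to 1.15 CPM in the other OGTi libraries, Bub1 at 2.10 against 0.546 to 0.774, Cdc20 at 12.2 against 4.41 to 5.23, Kif15 at 0.439 against 0.0929 to 0.144, Kif22 at 4.35 against 1.16 to 1.47, and Nusap1 at 1.63 against 0.833 to 0.870. OGTi replicate 2 also had the highest summed level of the mitotic genes in its group, as control replicate 2 had in the control group. The remaining value was Incenp in control replicate 2, at 21.9 CPM against 10.6 to 11.9 CPM. Without replicate 2, 47 of the 55 genes were called lower, against 8.53% of all genes tested in that fit.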

How the results depend on the processing

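No mitotic gene was called higher under any setting, and 43 to 51 of the 55 were called lower. The fit as reported gave 48, with 10.2% of all genes lower. The 51 came with library totals, where 14.6% of all genes were lower. The fits on TPM plus 1 and plus 0.1 gave 50 each (17.3% and 17.4% of all genes), as did no filter (9.28%). Without the replicate block 43 were called lower (7.67% of all genes lower, 2991 genes called in either direction). The calls of Foxm1, Mybl2, Birc5, Cenpe and Espl1 were lost there. Of the 48 called, 40 kept their call in all 13 alternatives at the same threshold. The others were these 5 genes, of which Espl1, Mybl2 and Foxm1 also lost theirs in leave-one-out fits, with Kif11, Kif18a and Kif20a, which lost theirs without replicate 4 (adjusted p 0.0522, 0.0609 and 0.066). At a threshold of 0.01 (4.59% of all genes lower), 43 mitotic genes and 36 genes of the other mitotic lists were called lower, and 1668 genes in all were called in either direction. Leaving out a replicate pair gave 43 to 47 mitotic genes and 39 to 52 genes of the other mitotic lists called lower, against 5.52% to 9.03% of all genes, and 1905 to 3124 genes called in either direction, the lowest totals coming without replicate 3 (1905) and replicate 4 (1956), and 39 list genes without replicate 4. The median over the 55 genes was -1.51 on log2(TPM + 1), a scale that understates changes of low genes, and between -2.23 and -1.89 otherwise. Cenpf turned to -0.0027 without the block, -0.16 with library totals, -0.10 and -0.26 with TPM plus 1 and plus 0.1, and ranged from -0.11 to 0.19 as replicates were left out (-0.11 without replicate 1, -0.03 without replicate 4). Pttg1 turned to 0.0063 with upper-quartile scaling, was at -0.31 with library totals, -0.29 with the length trend removed, and -0.45 and -0.46 with TPM plus 1 and plus 0.1 (adjusted p 0.079 and 0.0848), and ranged from -0.24 to 0.021 as replicates were left out (0.021 without replicate 4). It was called in none of the 13 alternatives. The cause was not tested. The median of all genes was 0.13 under upper-quartile scaling and -0.19 under library totals, and the share of higher calls among all calls went from 44.3% to 54.2% and 30.1%. In the limma-trend fits on TPM plus 1 and plus 0.1, where unit, offset and test all differ, it was -0.10 and -0.23, with shares of 25.7% and 26.2%. Relative to that median the 55 genes stood at -2.04 as reported and under both scalings, at -1.41 with TPM plus 1 and at -1.97 with TPM plus 0.1.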

Other observations

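Knl1, one of the 7 mitotic genes not called, differed between the groups in the abundance-weighted length that RSEM gives for the mix of its transcripts. The length was 10828, 10019, 9634 and 10323 bases in control replicates 1 to 4 and 12327, 12382, 12580 and 13023 bases in OGTi, without overlap, a ratio of 1.23. The difference was noticed after its values had been seen and was not tested. Among 36 of the 55 genes with several transcripts and at least 10 counts in each library, it was the only one in which all OGTi lengths exceeded all control lengths with a ratio of at least 1.2, and 41 of 9276 genes so expressed did so (0.442%). Knl1 had 37 to 102 counts in a control library and 27 to 50 in an OGTi library, so that these lengths rest on few reads.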
